A study of Drosophila melanogaster with 12 samples.

Results

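Vision in *Drosophila* rests on opsins that carry a chromophore made from dietary carotenoids, and the genes examined here are the *Drosophila* opsins together with the genes that mature them or supply that chromophore. The list held 10 genes, namely the 6 opsins *ninaE*, *Rh2*, *Rh3*, *Rh4*, *Rh5* and *Rh6*, the opsin chaperone *ninaA*, and the chromophore supply genes *ninaB*, *ninaD* and *santa-maria*. A gene was measured where the platform annotation gave it a probe set that names no other gene. By that rule 3 of the 10 listed genes were measured, against 11982 genes in all, and each had 1 probe set. These were *ninaD*, *santa-maria* and *ninaB*, so the measurements concern the supply of the chromophore. For the other 7 genes, all 6 opsins and *ninaA*, the annotation used here names no probe set, alone or shared, and they were not analysed here.

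Flies cannot make retinal from scratch. They take up carotenoids from food, carry them in lipoprotein particles, cleave them to retinal and pass the retinal to photoreceptors, where it binds opsin and also allows the opsin to leave the endoplasmic reticulum. *ninaD* and *santa-maria* encode class B scavenger receptors, relatives of mammalian SR-BI and CD36, that bring carotenoids into cells. The *ninaD* product is known to act in the midgut and the *santa-maria* product in neurons and glia outside the retina. *ninaB* encodes the oxygenase that cleaves and isomerises carotenoids to retinal. Loss of any of these genes leaves flies short of visual pigment, and the name nina stands for "neither inactivation nor afterpotential", the electroretinogram defect by which such mutants were found.

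Heads of adult flies were taken 60 h after eclosion from 4 groups of 3 biological replicates, 12 arrays in all. In the rescue, a *tbph* Δ23/Δ23 mutant carried *elav*-GS-GAL4, a pan-neuronal driver that is active only with the drug RU-486, together with UAS-TBPH, and was fed 5 mM RU-486 for those 60 h. The *tbph* Δ23 and *tbph* Δ142 flies were mutant for *tbph*, the fly homologue of the RNA-binding protein TDP-43, through 2 independent loss-of-function alleles, and *w1118* flies were the controls; these 3 groups received food without the drug. Drug, transgenes and TBPH re-expression varied together in the rescue, and arrays of driver-only or drug-only flies were not analysed here, so their parts cannot be told apart. The sources used here give neither the sex of the flies nor the number of heads per array.

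Total RNA was hybridised to Drosophila Genome 2.0 arrays, and all values below are log2 intensities. Differences were tested with limma, a linear model that shares information on the spread between genes, over all 4 groups, and a gene passed, or was called, at a Benjamini-Hochberg adjusted p below 0.05 over the 11982 genes of a comparison. Median values of the 12 arrays over all probe sets were at most 4.49. Arrays of 1 group correlated with each other at 0.995 or more on average, apart from those of the rescue, which correlated at 0.973 for replicate 1 and at 0.985 for both other replicates. Rescue replicate 1 also stood apart in 4 midgut digestive enzyme genes, whose summed level (log2 of the summed intensities) was 14.05 on that array and between 5.51 and 5.95 on the other 11. Among the controls, *w1118* replicate 2 had a summed level of 13.22 for 4 fat body markers, against 13.95 and 14.03 in *w1118* replicates 1 and 3. For 4 haemocyte markers it had 8.51, against 9.35 and 9.31. The better lit of the 2 *TBPH* probe sets averaged 9.51 ± 0.34 in the rescue, 8.19 ± 0.12 in *tbph* Δ23 heads, 5.43 ± 0.10 in *tbph* Δ142 heads and 7.98 ± 0.03 in *w1118* (SD, n = 3 each). The sources used here do not give its place relative to the deleted stretches, so its level in *tbph* Δ23 heads does not check that label. As heads were measured whole, fewer cells of a type and less RNA per cell cannot be told apart in any result below.

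*ninaD* was markedly lower in both mutants than in *w1118* and lower still in the rescue. It read 4.52, 4.27 and 4.61 on the rescue arrays, 5.07, 4.72 and 4.98 on the *tbph* Δ23 arrays, 5.39, 5.17 and 5.04 on the *tbph* Δ142 arrays and 7.19, 7.30 and 7.60 on the *w1118* arrays. All 9 arrays of *tbph* mutant flies, with or without the transgene, lay at least 1.80 log2 units below the lowest *w1118* array, and only the 2 mutant alleles overlapped. Separation of this kind was frequent in these data: for 15.2% of genes the 6 mutant arrays all lay below the 3 *w1118* arrays, for 14.6% the 3 rescue arrays all lay below the 6 mutant arrays, and for 23.0% they all lay below the 3 *w1118* arrays. The order of the means was rescue (4.47 ± 0.18), *tbph* Δ23 (4.92 ± 0.19), *tbph* Δ142 (5.20 ± 0.17) and *w1118* (7.36 ± 0.22, SD, n = 3 each).

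**Figure D1:**
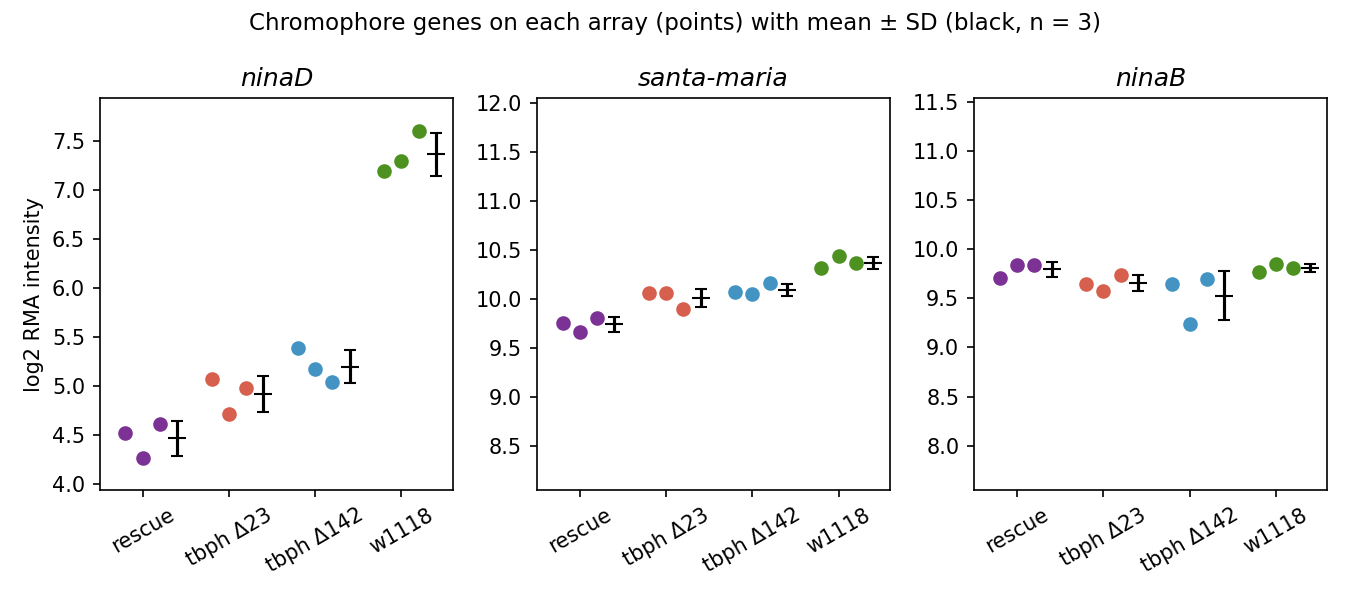
Log2 RMA intensity of *ninaD*, *santa-maria* and *ninaB* on each array of the 4 groups (points), with the mean and SD of 3 arrays beside them in black. The vertical axes span the same number of log2 units but start at different levels. *ninaD* lay between 4.27 and 5.39 on all arrays of *tbph* mutant flies, against 7.19 to 7.60 in *w1118*; the *santa-maria* groups were stacked in the same order over a narrower range, and the *ninaB* groups lay close together.

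The difference in *ninaD* from *w1118* was -2.44 in *tbph* Δ23 heads (95% interval -2.74 to -2.14, limma adjusted p = 5.42e-07) and -2.16 in *tbph* Δ142 heads (-2.47 to -1.86, limma adjusted p = 1.01e-06). On a linear scale the mutants had 18.4% and 22.3% of the *w1118* intensity, 5.43-fold and 4.48-fold lower. Among the 11982 genes this was the 14th largest fall in *tbph* Δ23 heads and the 24th largest in *tbph* Δ142 heads. Both differences are many times the SD within any group, and both comparisons use the same *w1118* arrays.

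The rescue did not bring *ninaD* closer to *w1118*. Against *tbph* Δ23, from whose allele the rescue was built, *ninaD* was lower in the rescue by a log2 difference of -0.46 (95% interval -0.76 to -0.15, limma adjusted p = 0.0275), and against *tbph* Δ142 by -0.73 (-1.03 to -0.43, limma adjusted p = 0.00207). The *tbph* Δ23 comparison depended on single arrays: the adjusted p was 0.101 when rescue replicate 2 was left out, 0.102 when *tbph* Δ23 replicate 1 was left out and 0.0829 when *tbph* Δ23 replicate 3 was left out. Relative to *w1118* the rescue stood at -2.90 (-3.20 to -2.59, limma adjusted p = 2.41e-08), 13.4% of the *w1118* intensity and 7.44-fold lower. The 2 alleles themselves differed by -0.28 for *tbph* Δ23 minus *tbph* Δ142, with an interval of -0.58 to 0.03 that spans 0 (limma adjusted p = 0.358).

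The rescue values of *ninaD* lie near the median of all probe sets on an array. Over the gene values the array medians were higher, at 5.77 to 5.92, and the mutant values of *ninaD*, at most 5.39, also lie below these. No detection call accompanies the values, so what share of the signal at these levels is background was not tested, in the rescue or in the mutants. Rescue replicate 1, the array with the midgut enzyme signal, read 4.52 for *ninaD*, between the other rescue arrays. The *ninaD* differences of the rescue kept their direction and calls without that array.

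*santa-maria* followed the same order of groups over a much smaller range. It read 9.75, 9.66 and 9.81 on the rescue arrays, 10.06, 10.05 and 9.90 on the *tbph* Δ23 arrays, 10.07, 10.04 and 10.16 on the *tbph* Δ142 arrays and 10.31, 10.43 and 10.36 on the *w1118* arrays. Rescue arrays were all below the 6 mutant arrays, as for 14.6% of all genes. The 6 mutant arrays were all below the 3 *w1118* arrays, as for 15.2% of all genes. The means were 9.74 ± 0.07 in the rescue, 10.004 ± 0.09 in *tbph* Δ23 heads, 10.09 ± 0.06 in *tbph* Δ142 heads and 10.37 ± 0.06 in *w1118* (SD, n = 3 each), again with overlap only between the 2 alleles.

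*santa-maria* differed from *w1118* by -0.36 in *tbph* Δ23 heads (95% interval -0.52 to -0.21, limma adjusted p = 0.00301) and by -0.27 in *tbph* Δ142 heads (-0.43 to -0.12, limma adjusted p = 0.0128), leaving 77.8% and 82.7% of the *w1118* intensity. Without *tbph* Δ142 replicate 2 the *tbph* Δ142 comparison had an adjusted p of 0.0501. The rescue was lower than *tbph* Δ23 by a log2 difference of -0.27 (-0.42 to -0.11, limma adjusted p = 0.0126) and lower than *tbph* Δ142 by -0.35 (-0.51 to -0.20, limma adjusted p = 0.00267). The *tbph* Δ23 comparison lost its call, at adjusted p between 0.051 and 0.0522, when rescue replicate 2, *tbph* Δ23 replicate 1 or *tbph* Δ23 replicate 2 was left out. Against *w1118* the rescue had 64.7% of the intensity, a log2 difference of -0.63 (-0.78 to -0.48, limma adjusted p = 2.26e-05). The alleles differed by -0.09 (-0.24 to 0.06, limma adjusted p = 0.607).

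*ninaB*, the enzyme gene, passed the threshold in none of the 6 comparisons. It read 9.71, 9.85 and 9.84 on the rescue arrays, 9.65, 9.58 and 9.74 on the *tbph* Δ23 arrays, 9.65, 9.24 and 9.70 on the *tbph* Δ142 arrays and 9.77, 9.85 and 9.81 on the *w1118* arrays. Its 6 mutant arrays lay below the 3 *w1118* arrays, by 0.03 at the closest, as for 15.2% of all genes. The rescue arrays overlapped both *tbph* Δ23 and *w1118*. *tbph* Δ142 replicate 2, at 9.24, was the lowest of the 12.

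The mean of *ninaB* was 9.80 ± 0.08 in the rescue, 9.66 ± 0.08 in *tbph* Δ23 heads, 9.53 ± 0.25 in *tbph* Δ142 heads and 9.81 ± 0.04 in *w1118* (SD, n = 3 each). Its difference from *w1118* was -0.15 in *tbph* Δ23 heads (95% interval -0.39 to 0.08, limma adjusted p = 0.367) and -0.28 in *tbph* Δ142 heads (-0.52 to -0.05, limma adjusted p = 0.0802). The rescue differed by 0.14 from *tbph* Δ23 (-0.09 to 0.38, limma adjusted p = 0.366), by 0.27 from *tbph* Δ142 (0.04 to 0.50, limma adjusted p = 0.0868) and by -0.01 from *w1118* (-0.25 to 0.22, limma adjusted p = 0.949). For *tbph* Δ142, 1 array set the side of the threshold: without *tbph* Δ142 replicate 3, which left replicate 2 with more weight, *ninaB* passed against *w1118* (-0.37, limma adjusted p = 0.0383) and in the rescue against *tbph* Δ142 (0.35, limma adjusted p = 0.0411). The alleles differed by 0.13 (-0.11 to 0.36, limma adjusted p = 0.639).

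**Figure D2:**
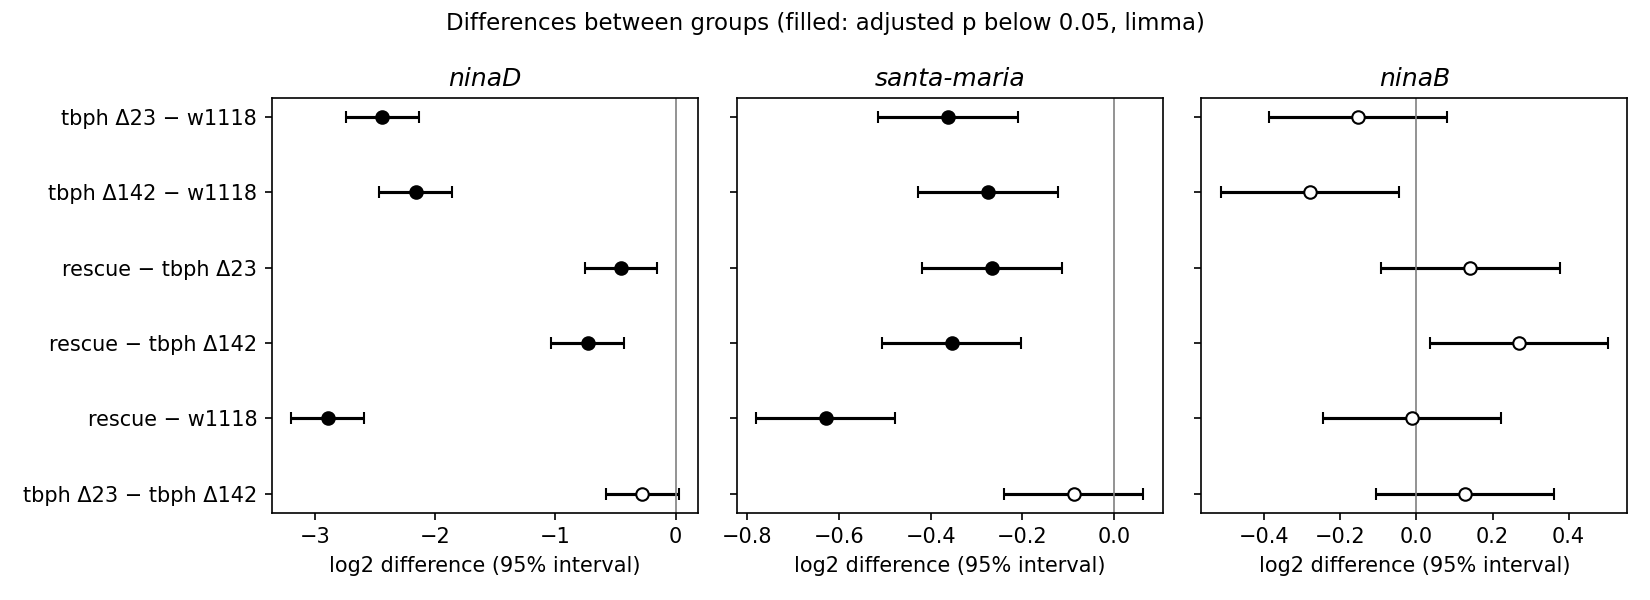
Log2 differences of *ninaD*, *santa-maria* and *ninaB* in 6 comparisons (vertical axis), with 95% intervals from the limma fit; filled points passed an adjusted p of 0.05 and the horizontal scale differs between panels. *ninaD* and *santa-maria* were filled and below 0 in 5 comparisons each, and the difference between the 2 alleles, like every *ninaB* comparison, was open.

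Set against all genes, 2 of the 3 measured genes were lower in *tbph* Δ23 heads than in *w1118*, where 21.3% of the 11982 genes passed in either direction and 11.9% were lower. The same 2 were lower in *tbph* Δ142 heads, where 25.0% of genes passed and 15.0% were lower, and 9.68% of genes were lower in both alleles. In the rescue the same 2 were lower than in heads of *tbph* Δ23 flies, where 29.5% of genes passed and 15.1% were lower, and lower than in heads of *tbph* Δ142 flies, where 27.5% passed and 13.2% were lower. Against *w1118* 35.0% of genes passed in the rescue and 18.0% were lower. Between the 2 alleles 3.49% of genes passed and none of the 3 did. A stepwise pattern, lower in both mutants than in *w1118* and lower again in the rescue than in both mutants, was met by 341 genes (2.85%), *ninaD* and *santa-maria* among them. The reverse course, in which the rescue moved against a shared change of both mutants, was met by 454 genes (3.79%) and by none of the 3. A lower level in the rescue than in both mutants was called for 10.6% of genes. The median difference over all genes lay between -0.02 and 0.01 in the 6 comparisons.

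The remaining steps of carotenoid and retinoid handling were followed in a list of 7 further genes, all of them measured. Relative to *w1118*, 2 of the 7 were lower in both mutants, as were 9.68% of all genes, and none was higher, with a median difference over the list of -0.04 in *tbph* Δ23 heads and 0.02 in *tbph* Δ142 heads. The 2 were the retinol dehydrogenase genes *rdhB* and *Pdh*, whose products work in the visual cycle that regenerates the chromophore. In contrast to the receptor genes, both were higher in the rescue than in either mutant.

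*rdhB* averaged 10.50 ± 0.14 in the rescue, 9.62 ± 0.13 in *tbph* Δ23 heads, 9.56 ± 0.14 in *tbph* Δ142 heads and 10.63 ± 0.09 in *w1118* (SD, n = 3 each). It was lower than in *w1118* by log2 differences of -1.01 in *tbph* Δ23 heads (limma adjusted p = 2.87e-05) and -1.07 in *tbph* Δ142 heads (limma adjusted p = 1.42e-05), and was higher in the rescue than in those mutants by 0.88 and 0.94 (limma adjusted p = 3.92e-05 and 3.34e-05). The rescue differed from *w1118* by -0.13, which did not pass (limma adjusted p = 0.332). *Pdh*, a gene of the retinal pigment cells, ran the same course on a smaller scale. Its mean was 13.52 ± 0.16 in the rescue, 13.16 ± 0.04 in *tbph* Δ23 heads, 13.16 ± 0.05 in *tbph* Δ142 heads and 13.52 ± 0.04 in *w1118*, and the differences were -0.36 and -0.35 for the mutants (limma adjusted p = 0.00538 and 0.00514) and 0.36 and 0.35 for the rescue against them (limma adjusted p = 0.00358 and 0.00473). When the array quantiles were equalised once more, the rescue difference from *tbph* Δ23 was 0.17 for *Pdh*, with a limma adjusted p of 0.116. Of 7 cone, lens and pigment cell markers listed, *Pdh* included, 5 were measured. In each mutant *Pdh* alone passed against *w1118*, where 21.3% and 25.0% of all genes did. The other 4 did not pass, with differences of -0.05 to 0.06 in *tbph* Δ23 heads and -0.27 to 0.16 in *tbph* Δ142 heads. The lowest of these, *st* in *tbph* Δ142 heads, had a limma adjusted p of 0.051. The list medians were -0.043 and 0.095.

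Among the carriers, *apolpp*, which encodes the main lipoprotein of the haemolymph, was higher in the rescue than in heads of *tbph* Δ23 flies by 1.01 (limma adjusted p = 0.00687) and than in heads of *tbph* Δ142 flies by 0.84 (limma adjusted p = 0.0214). Leaving out rescue replicate 2 or 3, or *tbph* Δ142 replicate 1 or 2, put the adjusted p of the *tbph* Δ142 comparison at 0.0504 to 0.0698. The lipoprotein receptor gene *LpR1* was lower in the rescue by -0.28 against each mutant (limma adjusted p = 0.0169 and 0.0182), and its calls were lost at adjusted p of 0.054 to 0.0704 when rescue replicate 2, replicate 1 or 2 of *tbph* Δ23 or replicate 2 of *tbph* Δ142 was left out. *ninaG*, an oxidoreductase gene needed for the hydroxylated form of the chromophore, was 0.36 and 0.31 above *w1118* in the mutants without passing (limma adjusted p = 0.0912 and 0.13), and 0.44 above it in the rescue (limma adjusted p = 0.0274, but 0.072 to 0.104 without rescue replicate 2 or 3 or *w1118* replicate 1 or 3). *LpR2* and *pinta*, the gene of a retinoid-binding protein, passed in none of the comparisons. In the rescue, 3 of the 7 genes were thus higher and 1 lower than in each mutant, where 29.5% and 27.5% of all genes passed, with medians of 0.30 and 0.13.

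**Figure D3:**
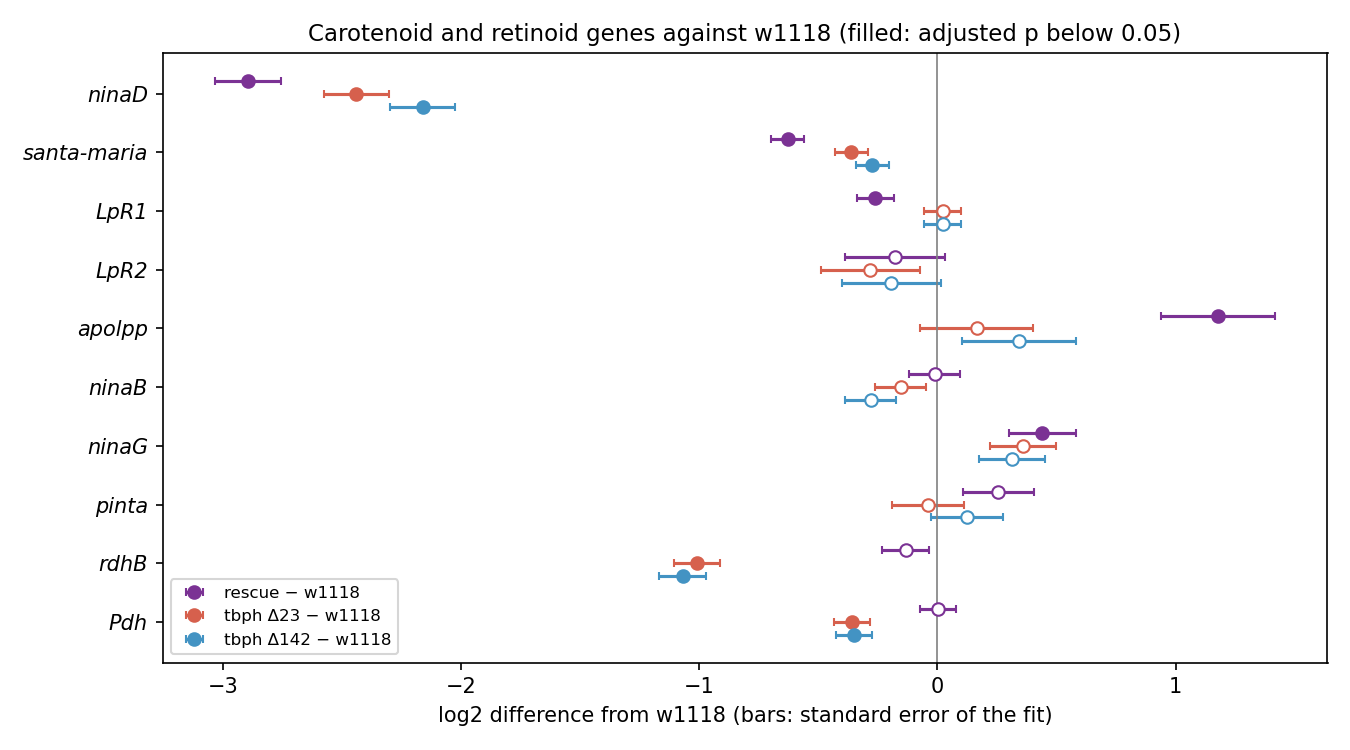
Log2 difference from *w1118* (horizontal axis, with the standard error of the fit) of 10 carotenoid and retinoid genes in the rescue, *tbph* Δ23 and *tbph* Δ142, with filled points where the adjusted p was below 0.05. *ninaD* and *santa-maria* lay furthest below 0 in the rescue, whereas *rdhB* and *Pdh* were below 0 in the mutants and close to 0 in the rescue.

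Of 12 other class B scavenger receptor genes listed, relatives of *ninaD* and *santa-maria*, 11 were measured, and none of these was lower in the rescue than in a mutant. Relative to *w1118*, 1 was lower in *tbph* Δ23 heads and 3 in *tbph* Δ142 heads, where 11.9% and 15.0% of all genes were lower, and none was higher, with medians of -0.06 and 0.03. In the rescue 4 were higher than in heads of *tbph* Δ23 flies and 6 higher than in heads of *tbph* Δ142 flies, with medians of 0.14 and 0.22. In these comparisons 29.5% and 27.5% of all genes passed in either direction, and 15.1% and 13.2% were lower. The called genes include *Snmp1* and *Snmp2*, which are known from olfactory organs. The *Snmp2* call against *tbph* Δ142 held in 8 of 20 alternative settings, with a limma adjusted p of up to 0.652. Of 5 antennal markers listed, 4 were measured. In the rescue 3 of these antennal markers were called higher than in *tbph* Δ23 heads and 4 higher than in *tbph* Δ142 heads. Their summed level was 10.74 to 12.63 in the rescue, 7.58 to 9.11 in *tbph* Δ23 heads, 6.39 to 7.71 in *tbph* Δ142 heads and 7.45 to 7.94 in *w1118*, with *Obp83b* 5.60 and 6.20 above the mutants. The part of antennal tissue in the scavenger receptor counts was not tested. The largest difference belonged to *CG2736*, at 1.53 and 1.31 in the rescue against the mutants (limma adjusted p = 0.000122 and 0.000498). *CG3829* was lower than *w1118* in both mutants (-0.32 and -0.30, limma adjusted p = 0.0286 and 0.0304), but each call held in 14 of 20 alternative settings, and with array medians centred the adjusted p was 0.0512 and 0.0829.

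Of 13 genes listed for the folding and transport of opsins, 8 were measured. Relative to *w1118*, 2 were higher in *tbph* Δ23 heads and 1 in *tbph* Δ142 heads. There 21.3% and 25.0% of all genes passed in either direction, and 11.9% and 15.0% were lower. *Cnx99A*, the calnexin that helps Rh1 to fold, was higher in both (0.35 and 0.31, limma adjusted p = 0.0145 and 0.0231), and higher again in the rescue than in the mutants (0.39 and 0.43, limma adjusted p = 0.00578 and 0.00368). Without *w1118* replicate 2 its mutant differences did not pass (limma adjusted p = 0.0568 and 0.0875), and leaving out *tbph* Δ23 replicate 2 (0.0655), or replicate 1 or 2 of *tbph* Δ142 (0.0784 and 0.0521), likewise ended the call for that allele. Relative to the mutants, 3 of the 8 were higher in the rescue against *tbph* Δ23 and 4 against *tbph* Δ142. In these comparisons 29.5% and 27.5% of all genes passed in either direction, and 15.1% and 13.2% were lower. *EMC8-9* and *EMC1*, subunits of the endoplasmic reticulum membrane complex needed to make Rh1, were among the higher genes (0.49 and 0.58 for *EMC8-9*, 0.30 and 0.34 for *EMC1*). Without replicate 3 of *tbph* Δ23, *EMC1* had an adjusted p of 0.0589 against that allele. None of these 8 genes was lower in those 4 comparisons.

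Transcription factors and other regulators known to set which opsin a photoreceptor makes were measured for 12 of 14 listed genes. Against *w1118*, 5 were higher and 2 lower in *tbph* Δ23 heads, and 4 were higher and 1 lower in *tbph* Δ142 heads, where 21.3% and 25.0% of all genes passed. *Pph13*, a homeodomain factor that acts on photoreceptor genes, was higher in both mutants (1.07 and 1.08, limma adjusted p = 2.15e-06 and 1.45e-06) and lower in the rescue than in them (-0.34 and -0.36, limma adjusted p = 0.0037 and 0.00333), still 0.72 above *w1118* (limma adjusted p = 1.02e-05). *gl*, the zinc finger gene needed for photoreceptor development, was higher in the mutants (0.56 and 0.64) and higher again in the rescue than in them (0.56 and 0.47). *melt*, which biases R8 cells toward the opsin *Rh5*, was lower in the mutants (-0.48 and -0.97, limma adjusted p = 0.0302 and 0.00039) and lower again in the rescue (-1.34 and -0.86 against them). The *melt* difference in *tbph* Δ23 heads was -0.32 without *w1118* replicate 2 (limma adjusted p = 0.0986), and leaving out *tbph* Δ23 replicate 1 or 2 gave adjusted p of 0.0877 and 0.102.

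*Rh7*, an opsin gene of brain pacemaker neurons that is outside the 10 listed genes, was measured with 2 probe sets and was looked up after the annotation had been seen. The dimmer probe set read 3.59 to 3.82 and the brighter 7.61 to 7.96 as group means, so the gene value is the midpoint of the 2 and the level of neither. This midpoint averaged 5.60 ± 0.11 in the rescue, 5.78 ± 0.04 in *tbph* Δ23 heads, 5.89 ± 0.12 in *tbph* Δ142 heads and 5.68 ± 0.11 in *w1118* (SD, n = 3 each). It differed from *w1118* by 0.10 in *tbph* Δ23 heads and 0.21 in *tbph* Δ142 heads (limma adjusted p = 0.465 and 0.0997), and was lower in the rescue than in heads of *tbph* Δ142 flies by a log2 difference of -0.29 (limma adjusted p = 0.0226), a call kept in 13 of 20 alternative settings. Fitted singly, that difference was -0.35 for the brighter probe set (limma adjusted p = 0.0286) and -0.23 for the dimmer (limma adjusted p = 0.19).

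Downstream of the opsins, 16 of 20 listed phototransduction genes were measured. The probe sets of *Galphaq*, the G protein alpha subunit gene, disagreed in direction against *w1118*, and the counts leave it out, a choice made after the data had been seen. Of the other 15 genes, 7 were higher and 1 lower than *w1118* in *tbph* Δ23 heads, where 21.3% of all genes passed, and 6 were higher and none lower in *tbph* Δ142 heads, where 25.0% did. Of the higher genes, *stops*, an SOCS-box protein gene of photoreceptors, differed by 0.76 in each mutant (limma adjusted p = 5.39e-05 and 3.93e-05) and *Gprk1*, a receptor kinase gene that acts on rhodopsin, by 0.67 and 0.63 (limma adjusted p = 0.000445 and 0.00049). In the rescue none of the 15 was higher than in the mutants. Where 15.1% and 13.2% of all genes were lower, 5 were lower than in heads of *tbph* Δ23 flies and 3 lower than in heads of *tbph* Δ142 flies. The 3 were *laza*, a lipid phosphatase gene (-0.46 and -0.72), *rdgA*, a diacylglycerol kinase gene (-0.55 and -0.54), and *trp*, the light-gated channel gene (-0.44 and -0.38). The phosphatase gene *rdgC* was higher in the mutants by 0.56 and 0.59 (limma adjusted p = 0.00731 and 0.00442). In the rescue against *w1118* its direction depended on the probe set, at 0.48 for the median and -0.19 for the brightest.

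Markers of photoreceptors were measured for 6 of 8 listed genes, and *Arr1*, *Arr2*, *trp* and *inaD* among them are also phototransduction genes counted above. Their summed level lay between 15.32 and 15.40 in the rescue, 15.44 and 15.46 in *tbph* Δ23 heads, 15.39 and 15.40 in *tbph* Δ142 heads, and 15.27 and 15.33 in *w1118*. This sum is carried by the arrestin genes *Arr2* (means of 14.01 to 14.10) and *Arr1* (13.38 to 13.58), which lie near the highest value on any array (14.23), so it reflects the other 4 markers little. Of the 6 markers, 2 were higher than *w1118* in *tbph* Δ23 heads (*chp* and *trp*), 1 was higher in *tbph* Δ142 heads (*trp*) and none was lower. Of all genes 21.3% and 25.0% passed in these comparisons. In the rescue *chp*, a cell adhesion gene of photoreceptors, was lower than in heads of *tbph* Δ23 flies by -0.42 (limma adjusted p = 0.000331), and *trp* was lower than in both mutants.

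The 4 measured fat body markers of 5 listed differed from each other in direction. *Fbp1*, a larval serum protein receptor gene of the fat body, averaged 3.24 ± 0.39 in the rescue, 3.47 ± 0.07 in *tbph* Δ23 heads, 3.82 ± 0.59 in *tbph* Δ142 heads and 6.73 ± 0.50 in *w1118* (SD, n = 3 each). Relative to *w1118* it stood at -3.26 and -2.91 in the mutants, and at -3.49 with the rescue (limma adjusted p = 2.08e-05, 3.35e-05 and 3.13e-06). In the rescue the other fat body markers stood above *w1118*, by 3.96 for the storage protein gene *Lsp2* and 1.18 for *apolpp* (limma adjusted p = 0.0033 and 0.00213), and by 0.69 without passing for the yolk protein gene *Yp1* (limma adjusted p = 0.142). The summed level of the 4 was 14.83 to 14.99 in the rescue, 12.78 to 13.26 in *tbph* Δ23 heads, 13.69 to 13.94 in *tbph* Δ142 heads and 13.22 to 14.03 in *w1118*. Of 4 female fat body markers, *Yp1* among them, 3 were lower than *w1118* in *tbph* Δ23 heads and none passed in *tbph* Δ142 heads, with *Yp2* at -3.39 and -0.55. Of all genes 11.9% and 15.0% were lower there. In the rescue all 4 were higher than in heads of *tbph* Δ23 flies and 3 higher than in heads of *tbph* Δ142 flies, with *fit* at 6.93 and 5.63. In these comparisons 29.5% and 27.5% of all genes passed in either direction, and 15.1% and 13.2% were lower.

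Neurons and glia, the cells in which *santa-maria* is known to act, had 4 of 5 markers measured each. Of the 4 glial markers, 1 was lower than *w1118* in each mutant, where 11.9% and 15.0% of all genes were lower. The other 3 did not pass, with differences of -0.01 to 0.12 in *tbph* Δ23 heads and -0.13 to 0.04 in *tbph* Δ142 heads. The list medians were 0.03 and -0.05. The called gene, *repo*, stood at log2 differences of -0.33 and -0.35 (limma adjusted p = 0.00977 and 0.00572), beside -0.36 and -0.27 for *santa-maria*. In the rescue *repo* was higher than in the mutants (0.48 and 0.50), opposite to *santa-maria*. The glial gene *moody* was lower in the rescue than in the mutants (-0.31 and -0.27, limma adjusted p = 0.00116 and 0.00295), beside -0.27 and -0.35 for *santa-maria*. The other 2 glial markers passed in neither of those comparisons, and the list medians there were -0.08 and 0.02. In the mutants against *w1118*, where *santa-maria* was lower, *moody* stood at 0.07 and 0.04 without passing. The summed level of the glial markers was at most 13.04 in the rescue, 13.04 to 13.25 in *tbph* Δ23 heads, 12.97 to 13.07 in *tbph* Δ142 heads and 12.90 to 13.15 in *w1118*. This sum is carried by *Gs2* (means of 12.59 to 12.71). The neuronal gene *elav* was higher than *w1118* in the mutants (0.36 and 0.31, limma adjusted p = 0.00747 and 0.0165). The other 3 neuronal markers did not pass there, with differences of -0.03 to 0.23 in *tbph* Δ23 heads and -0.14 to 0.16 in *tbph* Δ142 heads. The list medians were 0.20 and 0.04. The summed level of the neuronal markers was 11.39 to 11.54 in the rescue, 11.30 to 11.42 in *tbph* Δ23 heads, 11.05 to 11.39 in *tbph* Δ142 heads and 11.09 to 11.34 in *w1118*. All 4 haemocyte markers were higher in the rescue than in each mutant (medians 1.82 and 1.30), and both measured muscle markers of 4 listed were lower (medians -1.20 and -1.27). In these comparisons 29.5% and 27.5% of all genes passed in either direction, and 15.1% and 13.2% were lower. Midgut enzyme markers, from the tissue in which *ninaD* is known to act, lay between 5.51 and 5.85 in the mutants and *w1118* together. The part of these cell types in the *ninaD* and *santa-maria* results was not tested.

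*ninaD* was the only one of the 3 genes whose group means spanned 1 log2 unit or more (2.90 between *w1118* and the rescue), and the genes with the most similar profiles were sought for it. Likeness was the root mean square difference between the 2 profiles over the 12 arrays, each profile centred on its own mean, so a small value means a close match. The 5 nearest of all genes tested were *snsl* (0.27), *zye* (0.27), *CG33093* (0.29), *Drsl4* (0.32) and *Nuf2* (0.39). They were ranked on these same arrays, and the likeness is a description of them. *Drsl4*, a gene of the drosomycin-like peptide family, averaged 9.35 in the rescue, 9.56 in *tbph* Δ23 heads, 9.45 in *tbph* Δ142 heads and 11.86 in *w1118*. *snsl* averaged 4.68, 5.28, 5.10 and 7.20 in the same groups.

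**Figure D4:**
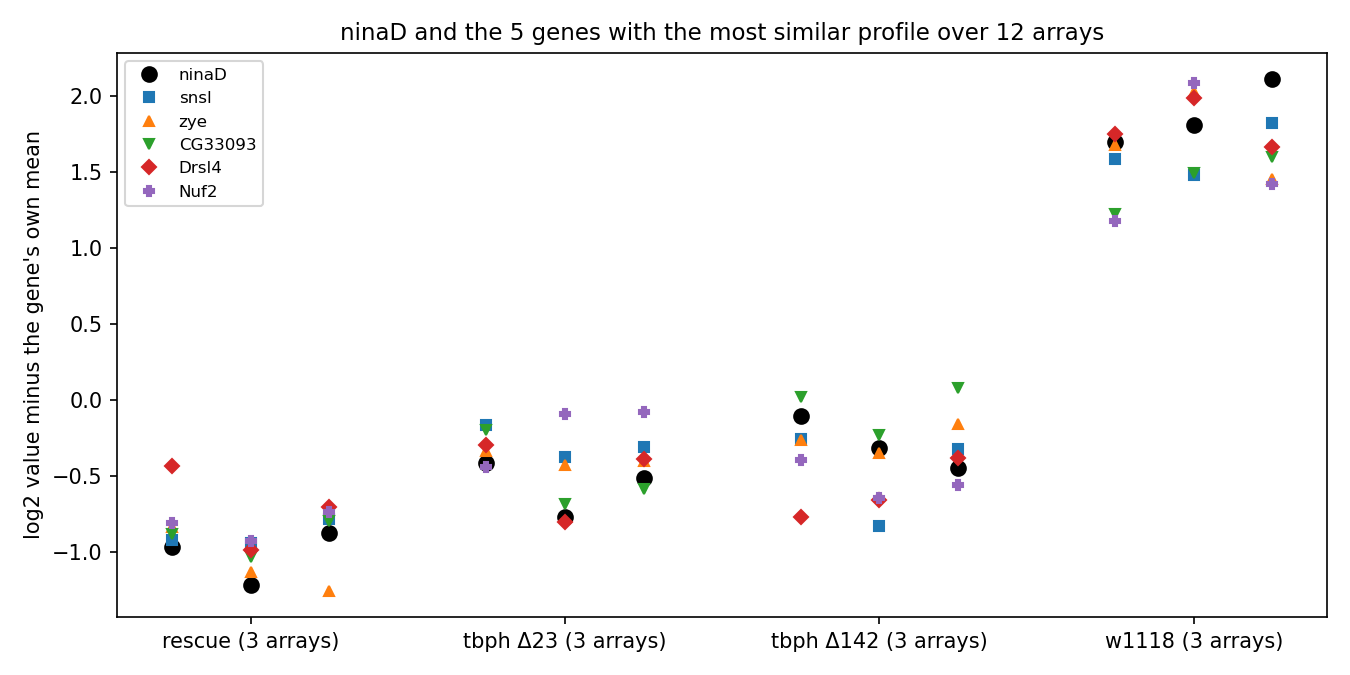
Log2 value minus the gene's own mean over 12 arrays (vertical axis) for *ninaD* (black circles) and the 5 genes nearest to it in profile, with 1 column of points per array and 3 arrays in each of the 4 groups. All 6 genes lay above 1 on every *w1118* array. On the mutant and rescue arrays they lay lower and, for single genes such as *Drsl4* and *snsl*, overlapped between those groups.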

How the data were processed

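The authors made log2 values per probe set from the array scans by RMA, which corrects background, equalises quantiles between arrays and summarises probes, and deposited them in 1 table of 18952 probe sets by 12 arrays (2.318 to 14.23, none missing; 0 columns unused). The sources used here do not give the RMA version. Of the probe sets, 13647 named 1 gene in GEO's 2016 platform annotation, 402 named several and 4903 were not listed; 13544 were matched to RefSeq (release 6) for present symbols. Probe sets of a gene were collapsed to their median, giving 11982 genes. limma 3.58.1 in R 4.3.3 fitted group means over all 12 arrays with empirical Bayes moderation, two-sided, and p-values were adjusted by Benjamini-Hochberg over all genes within a comparison (threshold 0.05), as tested on simulated data. The 3 arrays per group limit the precision, and all 4 groups share 1 estimate of the spread although rescue arrays varied more. Fold changes are on the RMA log2 scale. The comparisons share arrays.

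Named genes were the listed members with a probe set, from each further list up to 4 genes that changed most in both mutant comparisons and up to 4 in both rescue comparisons, and the 5 genes most like *ninaD*. *Rh7*, *TBPH*, *ninaG*, *LpR2*, *pinta*, *Gs2* and the genes beside the 3 in the genome were added after values had been seen. The genes and lists were chosen with earlier results of these data known. No sequence was used, and coordinates served only to order genes along a chromosome. Tried alternatives were the brightest probe set per gene, centred array medians, quantiles equalised again, a mean of at least 5, the compared groups alone, an intensity trend, array weights, a block per replicate number and each array left out.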

Additional observations from a re-analysis of the deposited data

How the results depend on the processing

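Over 20 alternative settings, the 3 genes gave 360 values in the 6 comparisons; 7 lost a call, 2 gained one and none that had passed changed sign. All 9 changes of call came from leaving out 1 array. The number of the 3 genes that passed ranged from 1 to 3 against *w1118* in *tbph* Δ142 heads and from 0 to 2 in the rescue against *tbph* Δ23, where 2 was the count with all arrays. *ninaD* passed against *w1118* in every setting, at -2.53 to -2.32 in *tbph* Δ23 heads, -2.26 to -2.04 in *tbph* Δ142 heads and -2.98 to -2.78 in the rescue. The uncalled *ninaB* difference took the other sign in 6 values. Replicate numbers did not pair the arrays: residuals of same-numbered arrays correlated at -0.21 to 0.09 over 18 pairs. With a block per replicate number the 3 genes kept the same count in every comparison, 2 in each except 0 between the alleles, and *ninaD* in the rescue against *tbph* Δ23 had an adjusted p of 0.0261. Over all genes, 418 passed between the alleles, 809 with array weights and as few as 134 with 1 mutant array left out. The further lists were put through the same settings after the data had been seen, and their small counts moved: against *w1118*, opsin folding genes that passed ranged from 1 to 3 in *tbph* Δ23 heads and 0 to 3 in *tbph* Δ142 heads (2 and 1 with all arrays), other scavenger receptors from 0 to 2 in *tbph* Δ23 heads (1), opsin regulators from 4 to 7 in *tbph* Δ23 heads (7) and phototransduction genes, *Galphaq* included, from 4 to 8 in *tbph* Δ142 heads (7). In the rescue against *tbph* Δ142, retinoid genes ranged from 2 to 5 (4), scavenger receptors from 2 to 6 (6) and phototransduction genes from 3 to 5 (3), and against *tbph* Δ23 opsin regulators from 3 to 5 (5). Taking the brightest probe set per gene turned *Galphaq* to -0.12, -0.27 and -0.82 in *tbph* Δ23 heads, *tbph* Δ142 heads and the rescue against *w1118*, and *rdgC* to -0.19 in the rescue. The 3 arrays per group, and single probe sets for *ninaD*, *santa-maria* and *ninaB*, limit what small differences can show.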

Other observations

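Measured genes beside *ninaD*, in order of RefSeq start position along the chromosome, were read as well, 3 on each side. None of the 6 (*elfless*, *rdo*, *Arr1*, *CG31741*, *CG15153* and *Slc25A46b*) passed in either mutant against *w1118*, where their limma differences ranged from -0.06 to 0.24. *rdo* was lower in the rescue than in heads of *tbph* Δ23 flies and of *tbph* Δ142 flies (-0.61 and -0.55; limma adjusted p = 0.000125 and 0.000365). Beside *santa-maria*, *CG5973*, a gene of the CRAL-TRIO lipid-binding family, was lower in both mutants (-0.42 in *tbph* Δ23 heads and -0.76 in *tbph* Δ142 heads; limma adjusted p = 0.0116 and 0.000207) and higher in the rescue than in them (0.58 and 0.91; limma adjusted p = 0.00115 and 5.37e-05), opposite to *santa-maria* in the rescue. *CG6055* was lower in both mutants (-0.74 and -1.03) and lower again in the rescue (-0.65 and -0.37, limma adjusted p = 0.00208 and 0.0491). That is the course that *santa-maria* took, met by 2.85% of all genes. *muc*, *CG5958*, *Gr28a* and *Gr28b*, also beside *santa-maria*, passed in neither mutant against *w1118*. Beside *ninaB*, *CG14367*, *f-cup* and *Adgf-D* were higher in both mutants, by 0.25 to 1.08, and *flfl*, *Adgf-C* and *Argp* passed in neither. These neighbours were listed by position alone, and whether adjacency has a part in their levels was not tested.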
